A study of Mus musculus with 31 samples.

Results

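The kidneys of male mice labelled HET for Nbl1 were compared with those of wild-type (WT) mice, all given phosphate-buffered saline (PBS), the control for cisplatin, which the other animals of the study received. The count columns labelled HET, PBS (7 animals) and WT, PBS (8 animals) were taken by their labels, which gave 15 of the 31 libraries of the series, and all genes were compared. All mice were on the B6 background. Treatment was for 4 weeks from the age of 8 weeks, and kidneys were taken 3 days after it, at an age given as 11 weeks. HET is read here as heterozygous, since the study's title speaks of partial reduction of Nbl1; which allele was used, in which cells it acts, and whether HET and WT animals were littermates is not stated in the labels. Each library name carries its own animal number and was treated as 1 animal. The HET kidneys are called HET PBS 1 to 7 and the WT kidneys WT PBS 1 to 8. By animal number they fall into 3 ranges: below 410 (HET PBS 1 to 3 and WT PBS 4), from 600 upward (HET PBS 4 to 7 and WT PBS 5 to 8) and above 2000 (WT PBS 1 to 3). What the numbers stand for is not stated. These are whole-kidney RNA profiles, in which fewer cells of a type and less RNA per cell cannot be told apart.

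Nbl1 encodes a secreted cystine-knot protein of the DAN family, which also holds gremlin, cerberus and sclerostin. Several proteins of this family bind bone morphogenetic proteins (BMPs) outside the cell and keep them from their receptors. BMPs otherwise signal through paired serine/threonine kinase receptors to Smad1, Smad5 and Smad9, which enter the nucleus with Smad4 and induce the Id genes and the inhibitory Smads, and in the kidney Bmp7 and its antagonists shape nephron formation and the response of the tubule to injury.

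Nbl1 was lower in the HET kidneys, but 3 of the 15 libraries had levels of Nbl1 or of its neighbour Htr6 that go against their label. Nbl1 (ENSMUSG00000041120) lies on chromosome 4 from 139082284 to 139092993, on the minus strand (GRCm38, GENCODE M21). Levels are given as CPM, the standard unit in which the counts of a gene are divided by those of its library, scaled by the trimmed mean of M-values (TMM) between libraries. In the WT kidneys Nbl1 had a lowest value of 3.18 CPM in WT PBS 6, a median of 5.57 and a highest value of 6.94. The HET kidneys had 0.0930, 3.29, 3.59, 2.85, 3.13, 0.374 and 3.21 CPM in HET PBS 1 to 7. The groups overlapped only through WT PBS 6, which lay below HET PBS 2, 3 and 7, and HET PBS 1 and HET PBS 6 lay far below the other 5 HET kidneys. The means were 2.36 ± 1.47 CPM (SD, n = 7) and 5.53 ± 1.15 CPM (SD, n = 8), so that HET kidneys held 42.7% of the WT level. On the log2 scale the difference was -1.79, with a two-sided exact permutation p of 0.000622 over the 6435 arrangements of the 15 animals.

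The 3 libraries stood apart by counts as well. HET PBS 1 had 3 Nbl1 counts, which is 1.59% of the mean of the other 7 WT kidneys (exact 95% Poisson interval 0.327% to 4.63%, counting error only). HET PBS 6 had 13 counts, or 6.39% of that mean (3.40% to 10.9%). WT PBS 6 had 108 counts, or 54.2% (44.5% to 65.4%). The other 5 HET kidneys had 3.21 ± 0.268 CPM (SD, n = 5), which was 54.8% of the 5.86 ± 0.695 CPM (SD, n = 7) of the other 7 WT kidneys. WT PBS 6 was thus at the level of those 5 HET kidneys, and HET PBS 1 and HET PBS 6 were near absence. Without these 3 libraries the log2 difference was -0.85, which is a description with no test, since the 3 were set apart by their Nbl1 and Htr6 levels.

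Htr6, a serotonin receptor gene of the nervous system, was the gene beside Nbl1 that differed most. It lies on the same strand from 139061108 to 139075570 on chromosome 4, and 6713 bases separate the 2 genes, with Htr6 downstream of Nbl1. The HET kidneys had 22, 20, 7, 11, 21, 29 and 21 Htr6 counts, 131 in all. The WT kidneys had 0 counts in 5 libraries, 1 count in each of WT PBS 5 and WT PBS 8, and 22 counts in WT PBS 6. WT PBS 6 was the one WT kidney within the HET range, so the same library stood apart in both genes, while HET PBS 1 and HET PBS 6 had Htr6 counts like those of the other HET kidneys. Scaled to library size, Htr6 was 6.35 times as high in HET as in WT kidneys (95% counting interval 4.09 to 10.3), and 66.7 times as high without WT PBS 6 (18.1 to 556). The log2 difference was 2.70 with an exact permutation p of 0.00124.

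**Figure D1:**
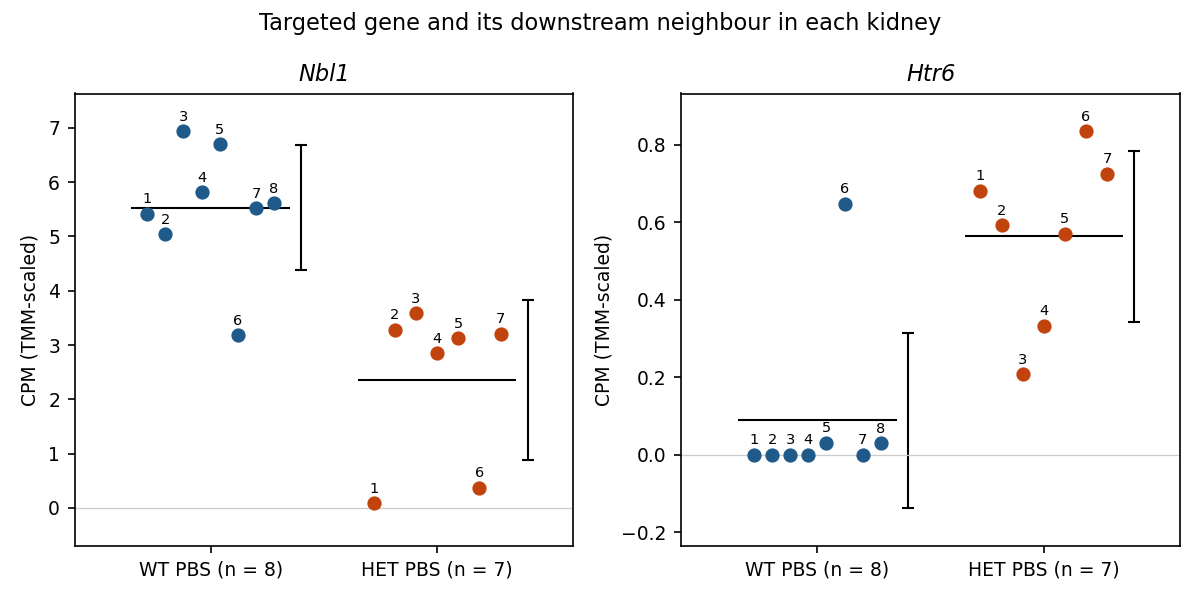
CPM of Nbl1 (left) and Htr6 (right) in each kidney, with the replicate number beside each point, the group mean as a line and the SD as a bar. WT PBS 6 lies at 3.18 CPM of Nbl1 and 0.648 CPM of Htr6, within or next to the HET points, and HET PBS 1 and HET PBS 6 lie at 0.0930 and 0.374 CPM of Nbl1.

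The Htr6 difference stood alone among the nearest tested protein-coding neighbours of Nbl1. Micos10, a subunit of the mitochondrial cristae complex, ends 8820 bases upstream of Nbl1 and had means (± SD) of 78.1 ± 4.95 CPM in the HET kidneys and 78.2 ± 2.77 CPM in the WT kidneys. Capzb, an actin capping protein, was at 73.4 and 73.7 CPM. Tmco4, Rnf186, Otud3, Pqlc2 and Akr7a5 had log2 fold changes of 0.11, -0.11, 0.14, -0.07 and -0.03, and none passed the test described next. Of the other tested genes within 1 Mb of Nbl1, 2 of 23 (8.70%) had an unadjusted p under 0.05, and within 5 Mb 9 of 125 (7.20%). Over all tested genes the share was 6.84%. Of those within 1 Mb, 1 was higher in HET kidneys, namely Htr6, and the other was lower. Of the other serotonin receptors, Htr1b (3.09 CPM in HET, 3.39 CPM in WT), Htr2a (0.709 and 0.551 CPM), Htr3a (0.571 and 0.488 CPM) and Htr4 (0.526 and 0.487 CPM) were detected at similar means, and 5 had 0 counts in every library.

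The libraries were otherwise alike. They held 29.2 M to 36.7 M counts in the HET group and 29.8 M to 37.3 M in the WT group, mitochondrial transcripts made up 7.96% to 8.96% of the counts, and Pearson's r of log2 CPM across genes was at least 0.976 for every pair of libraries. Kap, the androgen-dependent transcript of the mouse proximal tubule, was at a mean of 13412 CPM in HET and 13478 CPM in WT kidneys, and Umod, the thick ascending limb marker, was at 2682 and 2660.5 CPM, so that the labelled tissue was matched by its tubule markers.

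No gene passed the threshold between genotypes. Of 17817 tested genes, 0 (0%) had an adjusted p under 0.05 with edgeR's quasi-likelihood test and Benjamini-Hochberg adjustment, and the smallest adjusted p was 0.607. At an unadjusted p under 0.05 there were 1218 genes (6.84%), of which 614 (3.45%) were higher and the rest (3.39%) lower in HET kidneys. Scaling by library totals in place of TMM moved that split to 408 higher and 968 lower. DESeq2 called 3 genes: Lox (log2 fold change 0.65, adjusted p 0.0207), Chrm3 (-0.67, adjusted p 0.0286) and Trim46 (-0.94, adjusted p 0.0407). limma voom with sample quality weights called Htr6 alone (adjusted p 0.0348). Without HET PBS 1, HET PBS 6 and WT PBS 6, edgeR called Nbl1 alone (log2 fold change -0.87, SE 0.11, adjusted p 0.0192), and since these libraries were set apart by their Nbl1 and Htr6 levels this p is no independent test. In all 15 libraries Nbl1 itself had a log2 fold change of -1.23 (SE 0.42) and an adjusted p of 0.632 in edgeR, and Htr6 one of 2.62 (SE 0.75) and an adjusted p of 0.607.

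The comparison bounded most differences tightly. The median SE of a log2 fold change was 0.10, and the median half-width of its 95% interval was 0.21. That interval lay within a 2-fold change in either direction for 93.7% of the tested genes, and for 97.9% of the 15093 genes with a mean of at least 1 CPM. It lay within a 1.5-fold change for 76.9% and 88.6% of these genes. Across 9153 genes with at least 10 CPM, the median coefficient of variation between animals was 7.45% in HET and 7.20% in WT kidneys. DESeq2 and voom gave 1276 and 1295 genes at an unadjusted p under 0.05, and the fit without the 3 libraries gave 1033. Fitted changes over 2-fold in either direction, called or not, were found for 43 genes, 21 of them at a mean of at least 1 CPM.

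The genes closest to the threshold were of varied function. Lox, the lysyl oxidase that cross-links collagen and elastin, had the smallest p of all genes. It ranged from 5.0 to 8.39 CPM with a median of 7.94 in HET kidneys and from 3.26 to 5.32 CPM with a median of 4.53 in WT kidneys. The groups overlapped through HET PBS 5 alone, which lay below WT PBS 4 and WT PBS 8. The log2 fold change was 0.65 (SE 0.13), with an adjusted p of 0.607 in edgeR. The other 7 genes of smallest p among those higher in HET kidneys were Gzf1, a zinc finger transcription factor (0.21), Klhl21, an adaptor of a ubiquitin ligase (0.35), Adgrg2, an adhesion receptor (0.66), Rin2, an exchange factor for endosomal Rab proteins (0.24), Sesn2, a stress-induced inhibitor of mTOR signalling (0.91), Sh3gl2, an endophilin (0.31), and Crip2, a LIM domain protein (0.19).

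Sesn2 differed most in size among these 8 genes and was highest in 2 animals. It ranged from 41.8 CPM in HET PBS 6 to 138 CPM in HET PBS 4 with a median of 71.6 in HET kidneys, against 35.3 to 58.7 CPM with a median of 40.5 in WT kidneys. HET PBS 4 and HET PBS 7 (138 and 130 CPM) stood above all other kidneys, and the 5 remaining HET kidneys (41.8 to 73.0 CPM) overlapped the WT range. Without these 2 animals the log2 fold change of Sesn2 was 0.49, with an unadjusted edgeR p of 0.00315. HET PBS 4 and HET PBS 7 were set apart after seeing their levels. Fits without them, here and below, are therefore descriptions and no tests. The same 2 animals stood out in the glucocorticoid-induced genes below.

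Among the genes lower in HET kidneys, Trim46, a tripartite motif protein of neuronal microtubules, had the smallest p. It was at 0.592 to 1.27 CPM (median 0.924) in HET and 1.13 to 2.35 CPM (median 1.81) in WT kidneys. Only HET PBS 6 reached the range of WT kidneys. The log2 fold change was -0.94 (SE 0.20). Chrm3, a muscarinic acetylcholine receptor, was at 1.86 to 3.82 CPM (median 3.01) in HET and 3.83 to 5.68 CPM (median 4.66) in WT kidneys. Its groups did not overlap, by a margin far below the spread within either group. The log2 fold change was -0.68 (SE 0.14). The other 6 in this ranking were Tango2 (-0.17), Wfs1, a membrane protein of the endoplasmic reticulum (-0.23), the semaphorin Sema4a (-0.21), Nme7 (-0.23), Mansc1 (-0.32) and Lef1, a transcription factor of Wnt signalling (-0.76). All 16 ranked genes had the same edgeR adjusted p of 0.607. Apol9b, also lower in HET kidneys, had a smaller p than these 6 but was left out of the ranking by its low level (means of 0.44 CPM in HET and 0.77 CPM in WT).

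The CPM ranges of the groups did not overlap in 5 of the 17817 tested genes (0.0281%), with HET kidneys higher in 1 (0.00561%) and lower in 4 (0.0225%). Besides Chrm3 these were Apol9b (0.356 to 0.533 CPM in HET, 0.634 to 1.16 CPM in WT), Ccdc181 (14.6 to 15.9 and 16 to 18 CPM), Zfp968-ps (0.636 to 1.06 and 1.09 to 1.47 CPM) and, as the one that was higher in HET kidneys, the unclassified transcript Gm42732 (3.67 to 4.75 and 3.06 to 3.62 CPM). Those other 4 fall outside the naming rule and were named after their values were seen. Neither Nbl1 nor Htr6 was among the 5, because of WT PBS 6.

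The secreted BMP antagonists showed no shared direction. Of 16 antagonist genes 12, Nbl1 among them, were tested. None passed the threshold, and 6 were above and 6 below 0. At an unadjusted p under 0.05, 2 were lower and 0 higher (3.39% and 3.45% over all tested genes). The median log2 fold change was -0.04, against a median of 0.00 over all tested genes. The lower genes were Nbl1 and Kcp, which modulates BMP and TGF-beta ligands. Kcp was at 5.25 to 7.50 CPM (median 5.94) in HET and 6.62 to 8.16 CPM (median 7.24) in WT kidneys, and all HET kidneys but HET PBS 5 lay below the WT range. Its log2 fold change was -0.29 (SE 0.08), with an edgeR adjusted p of 0.607.

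Per transcript length, Nbl1 was not the leading antagonist of these kidneys. The authors' TPM values, which divide by gene length, averaged 2.50 for Nbl1 in WT kidneys, against 17.5 for Sostdc1, the antagonist of the distal tubule that binds Bmp7, 15.5 for Twsg1, 9.41 for Fstl1 and 2.92 for Kcp, and the other antagonists were below Nbl1. Sostdc1 had a log2 fold change of -0.19 (SE 0.10), Twsg1 of 0.02 (SE 0.04) and Fstl1 of -0.08 (SE 0.07). Grem1, which encodes a gremlin, was variable, with a log2 fold change of 1.01 (SE 0.58) and a 95% interval of -0.20 to 2.23. Nog, Chrd, Chrdl1, Fst, Fstl3 and Dand5 had log2 fold changes from -0.15 to 0.17. Chrdl2, Sost, Cer1 and Bmper were too low to be tested.

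Among the ligands, 18 of 20 genes were tested, and the median log2 fold change was 0.02. At an unadjusted p under 0.05, 2 were higher and 1 lower (3.45% and 3.39% over all tested genes). Bmp4, a ligand of the stroma and distal tubule, was at 25.6 to 33.3 CPM (median 26.2) in HET and 17.9 to 29.3 CPM (median 23.8) in WT kidneys, a log2 fold change of 0.24 (SE 0.10). Bmp6, which regulates iron handling, was at 39.2 to 64.8 CPM (median 47.0) and 36.7 to 50.3 CPM (median 40.6), a log2 fold change of 0.28 (SE 0.11). Bmp7, a BMP of the adult tubule, was at 19.5 to 30.4 CPM (median 24.5) and 26.2 to 31.9 CPM (median 28.6), a log2 fold change of -0.20 (SE 0.08). In all 3 genes the groups overlapped, and HET PBS 4 and HET PBS 7 held the 2 highest HET values of Bmp4 and Bmp6 and the 2 lowest of Bmp7. Without these 2 animals none of the 18 ligands had an unadjusted p under 0.05, where 4.16% of all tested genes did. Since the 2 animals held the extreme values of these genes, that is a description with no test. Inhba, Inhbb, Gdf15 and the TGF-beta genes had intervals that include 0.

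The receptors and Smads were close between genotypes. All 14 genes were tested, and the 95% interval lay within a 2-fold change for all 14. At an unadjusted p under 0.05, 1 was higher and 0 lower (3.45% and 3.39% over all tested genes). That gene was Bmpr1b, a type I BMP receptor, at 9.55 to 13.9 CPM (median 12.4) in HET and 7.73 to 10.5 CPM (median 9.08) in WT kidneys. HET PBS 4, 5, 6 and 7 lay above every WT kidney, and the other 3 HET kidneys lay within the WT range. The log2 fold change was 0.38 (SE 0.10), with an edgeR adjusted p of 0.607. Bmpr1a had a log2 fold change of 0.05 (SE 0.04), Bmpr2 of 0.02 (SE 0.03), Smad1 of 0.10 (SE 0.10), Smad5 of -0.04 (SE 0.04) and Smad4 of 0.04 (SE 0.04).

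BMP target genes did not differ beyond their spread. Of 11 tested targets, 0 passed in edgeR, 0 had an unadjusted p under 0.05, and the median log2 fold change was 0.06. Id1, Id2, Id3 and Id4, the inhibitors of differentiation that BMP signalling induces, had log2 fold changes of -0.07 (95% interval -0.60 to 0.45), 0.02 (-0.32 to 0.36), -0.16 (-0.49 to 0.17) and 0.06 (-0.11 to 0.23). The inhibitory Smad6 was at 0.28 (-0.01 to 0.57) and Smad7 at 0.11 (-0.18 to 0.40). Bambi, a pseudoreceptor, was at 0.24 (-0.02 to 0.50). The interval of Id1 leaves room for a change of about 1.5-fold in either direction, so a smaller response of this gene was not detectable here.

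**Figure D2:**
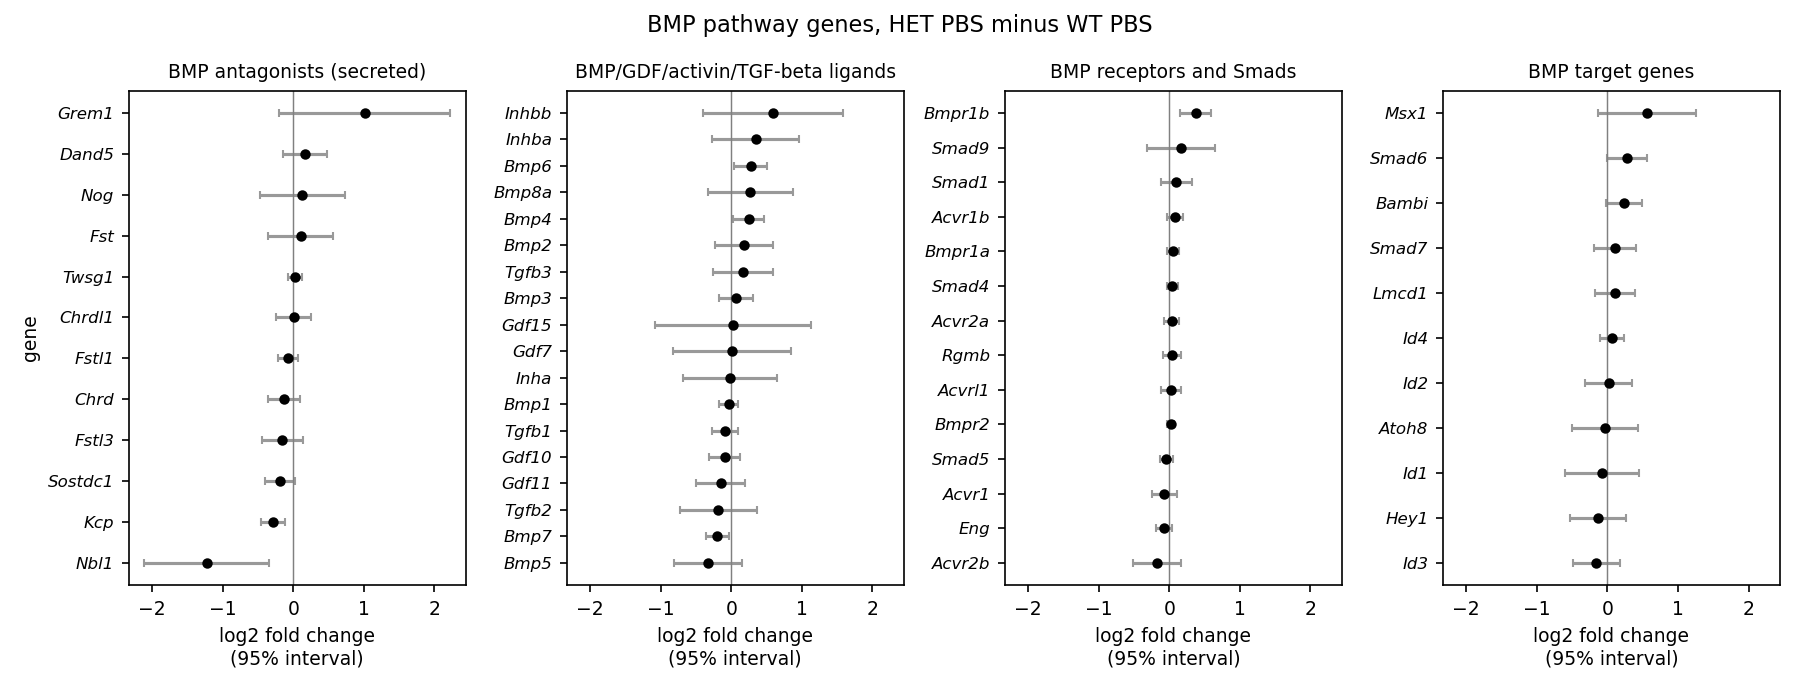
Log2 fold change (HET PBS minus WT PBS) with its 95% interval for the tested secreted BMP antagonists, ligands, receptors with Smads, and target genes. Nbl1 (-1.23) lies apart from the other antagonists, and most intervals in the 4 panels include 0.

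Nephron segments had near-equal levels. Among the 18 markers of the early proximal tubule, 14 had a log2 fold change below 0, by small sizes, and the median was -0.06. At an unadjusted p under 0.05, 0 were higher and 2 lower (3.45% and 3.39% over all tested genes). These 2 were Slc7a7, the basolateral transporter of cationic amino acids (log2 fold change -0.19, SE 0.05), at 88.6 to 114 CPM (median 99.5) in HET and 105 to 122 CPM (median 116) in WT kidneys, and Slc22a6, the organic anion transporter (-0.09, SE 0.04). Lrp2, the endocytic receptor megalin, was at -0.10 (SE 0.05), and Slc34a1, the phosphate transporter, at -0.07 (SE 0.04). With library totals in place of TMM, all 18 were below 0, 4 were lower at an unadjusted p under 0.05 and the median was -0.09. Without HET PBS 4 and HET PBS 7, 11 were below 0 and the median was -0.03. The 12 markers of the late proximal tubule had 1 higher, Slc22a13, and a median of -0.02. The androgen-maintained genes (10, with Odc1 lower at -0.23) and the thick ascending limb (10, with Cldn19 lower at -0.24) had medians of -0.01 and -0.04.

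Markers of the distal convoluted tubule (8), collecting duct principal cells (9), podocytes (10) and endothelium (11) had medians of 0.01, 0.01, -0.03 and -0.06, and the one gene among them at an unadjusted p under 0.05 was Wnk1, the kinase that regulates distal salt transport (log2 fold change 0.15, SE 0.04). Among 10 intercalated cell markers, Kit was higher (0.15) and Atp6v1b1 (-0.09) and Slc4a1 (-0.30) lower. Slc4a1, the anion exchanger of acid-secreting cells and of red cells, was at 23.3 to 34.6 CPM (median 30.7) in HET and 29.5 to 42.1 CPM (median 38.1) in WT kidneys. HET PBS 4 was the lowest, and the groups overlapped. Stromal and mural markers had Tagln, a smooth muscle actin-binding protein (0.31, SE 0.10), and Pdgfra (0.22, SE 0.10) higher, and 18 matrix genes had Ccn2 higher (0.37, SE 0.16), a median of -0.01 and Col1a1 at -0.15 (SE 0.23).

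Markers of tubular injury were mostly on the higher side in HET kidneys. Of 21 tested markers, 0 passed the threshold in edgeR, 19 had a log2 fold change above 0, 6 were higher and 1 lower at an unadjusted p under 0.05 (6.84% of all tested genes in either direction, 3.45% higher), and the median was 0.21. Lcn2, the secreted injury marker NGAL, was at 1.41 to 4.65 CPM (median 1.89) in HET and 0.691 to 1.86 CPM (median 1.24) in WT kidneys. HET PBS 2 was the highest, and HET PBS 5, 6 and 7 lay within the WT range. The log2 fold change was 0.89 (SE 0.25), with an edgeR adjusted p of 0.607. Spp1, osteopontin, had 0.21 (SE 0.07), Sox4 0.20 (SE 0.06), Vcam1 0.24 (SE 0.11), and the fibrinogen genes Fga 0.99 (SE 0.44) and Fgg 0.54 (SE 0.24), while Itgb6 was lower (-0.16, SE 0.07). Havcr1, the proximal tubule injury marker KIM-1, was at 0.899 to 4.23 CPM in HET and 0.807 to 1.81 CPM in WT kidneys (0.62, SE 0.31).

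The injury markers leaned the same way in each set of animals that was compared, by different sizes. These sets share animals, so their likeness is no repeated support. WT PBS 1 to 3, whose number range holds no HET kidney, had the lowest summed levels (878 to 927 CPM). The other kidneys were at 988 to 1268 CPM. In the 8 animals numbered from 600 alone (4 HET and 4 WT), 16 of the 21 were above 0, 4 were higher at an unadjusted p under 0.05 (3.09% over all genes) and the median was 0.11. Without HET PBS 4 and HET PBS 7, 20 were above 0, 3 were higher (1.87% over all genes) and the median was 0.21. Without HET PBS 1, HET PBS 6 and WT PBS 6, 19 were above 0, 7 were higher (3.07% over all genes) and the median was 0.24. With the range of animal numbers as a covariate, 16 were above 0, 3 were higher (3.66% over all genes) and the median was 0.10. The 28 tested p53 targets had a median of 0.06 with 4 higher at an unadjusted p under 0.05 (3.45% over all tested genes). These 4 were Sesn2, Cdkn1a, the cell-cycle inhibitor p21 (1.28, SE 0.46), Eda2r (0.73, SE 0.25) and Trp53inp1 (0.64, SE 0.26). The DNA damage reporters Ccng1 (-0.02, SE 0.04) and Mdm2 (0.09, SE 0.09) were near 0, and Cdkn1a was highest in HET PBS 7 and HET PBS 4 (48.6 and 34.4 CPM). Without these 2 animals, 2 of the 28 were higher (1.87% over all genes). In the 8 animals numbered from 600, 2 of 27 were higher and 4 lower (3.09% and 3.51% over all genes), with a median of -0.05. With the range of animal numbers as a covariate the median of the p53 targets was -0.03. Cell cycle genes (24) had a median of 0.01.

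Immune and blood genes varied between animals. Of 12 macrophage and monocyte markers, Itgam (0.82, SE 0.33), Ly6c2 (0.57, SE 0.18) and C1qa (0.29, SE 0.11) were higher and Cx3cr1 lower (-0.44, SE 0.20) at an unadjusted p under 0.05 (3.45% and 3.39% over all tested genes). Adgre1 (0.07, SE 0.16) and Csf1r (-0.03, SE 0.06), which define the cell type, were near 0. Itgam and Ly6c2 were highest in HET PBS 4 and HET PBS 7, and without these 2 animals 0 of the 12 were higher or lower at an unadjusted p under 0.05 (4.16% over all genes tested in that subset). There 9 of the 12 were above 0 as before, the median was 0.15 against 0.12 in all animals, and C1qa was at 0.25. The neutrophil markers had a median of 0.67 with none at an unadjusted p under 0.05, and the median was -1.40 in the 8 animals numbered from 600. The summed neutrophil markers ranged from 2.99 to 22.8 CPM in HET and from 3.36 to 19.0 CPM in WT kidneys. Erythroid genes were below 0 in 7 of 7 members, with a median of -0.49 and summed levels of 318 to 684 CPM in HET and 287 to 1605 CPM in WT kidneys. The highest of these was WT PBS 4, and in the 8 animals numbered from 600 6 of the 7 were above 0, with a median of 0.22. All 7 stayed below 0 with the range of animal numbers as a covariate (median -0.43) and without HET PBS 1, HET PBS 6 and WT PBS 6 (median -0.55). Interferon-stimulated genes (16) had a median of -0.10, T and NK cell genes (7) of -0.08 and MHC class II genes (7) of -0.03.

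**Figure D3:**
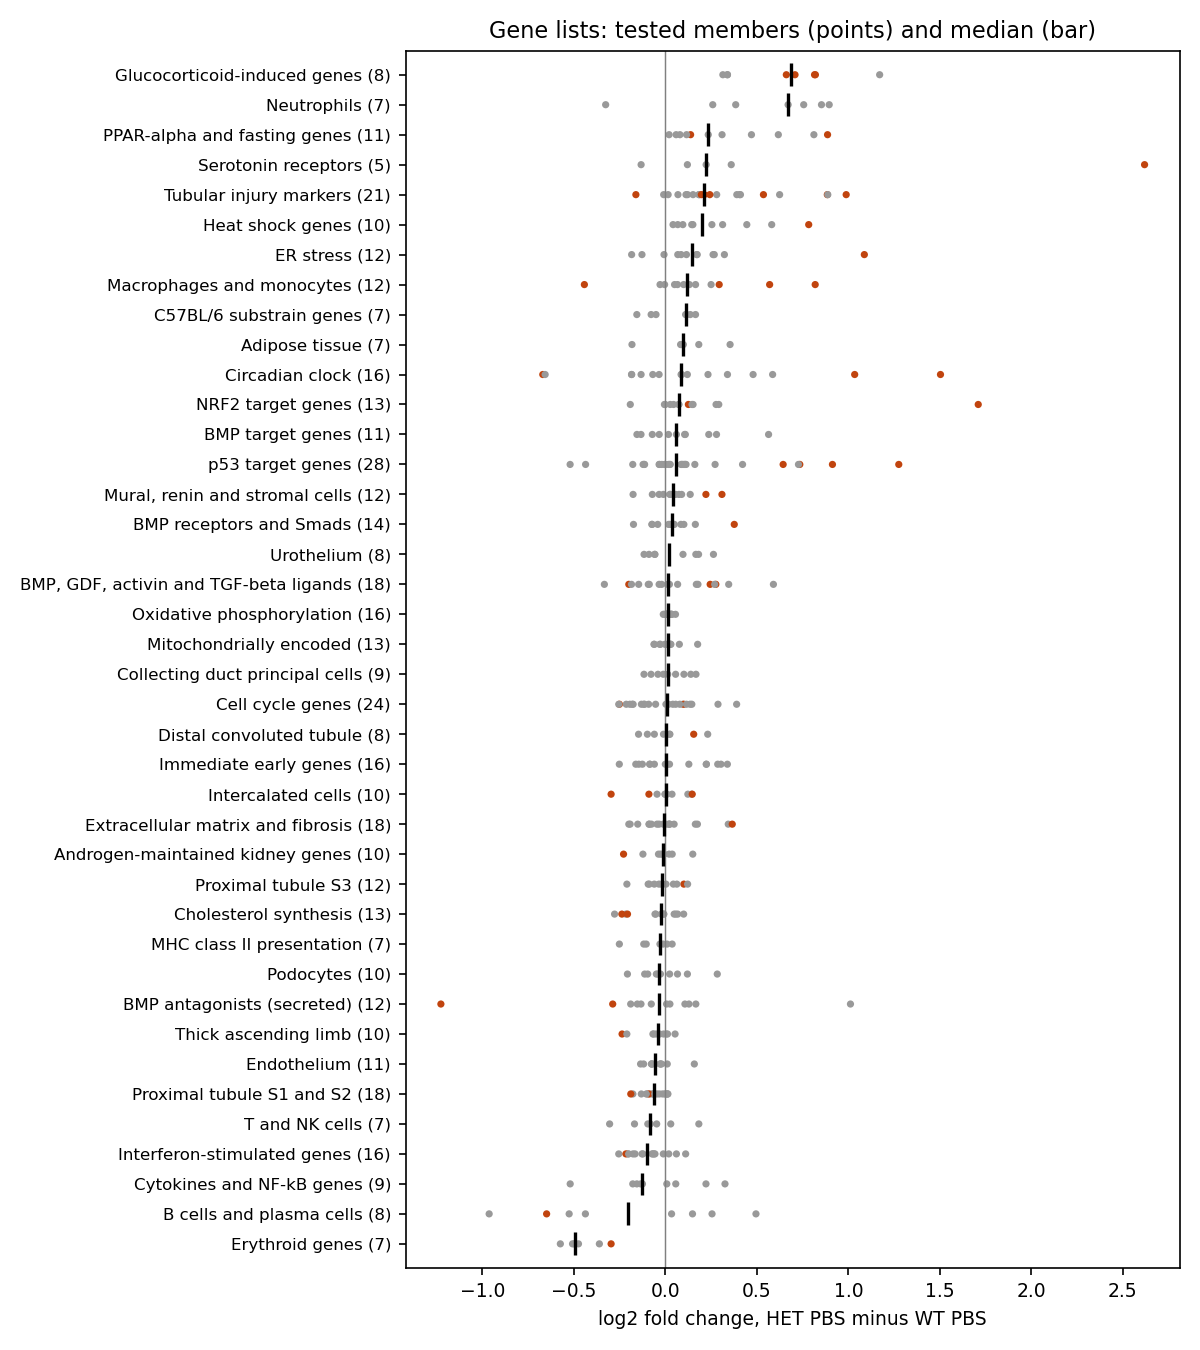
Log2 fold change (HET PBS minus WT PBS) of the tested members of each gene list with at least 5 of them (points, in orange where the unadjusted edgeR p is under 0.05) and their median (bar), with the number tested in brackets. Medians run from -0.49 for erythroid genes to 0.68 for glucocorticoid-induced genes, and Nbl1 and Htr6 lie outside the other members of their lists.

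The largest list median belonged to genes that glucocorticoid hormone induces. All 8 were above 0, with a median of 0.68, and 4 were higher at an unadjusted p under 0.05 (3.45% over all tested genes). These 4 were Fkbp5, the cochaperone of the glucocorticoid receptor (0.82, SE 0.30), Tsc22d3, the leucine zipper protein GILZ (0.71, SE 0.25), and the metallothioneins Mt1 (0.66, SE 0.25) and Mt2 (0.82, SE 0.32). Fkbp5 was at 101 to 433 CPM (median 219) in HET and 61.3 to 247 CPM (median 146) in WT kidneys. HET PBS 4 and HET PBS 7 had 403 and 433 CPM, above all others, while the lowest value belonged to WT PBS 2. Zbtb16 was at 145 and 147 CPM in HET PBS 4 and HET PBS 7, at 4.99 and 5.48 CPM in WT PBS 1 and WT PBS 2, and at 10.8 to 81.6 CPM in the other 11 kidneys (1.17, SE 0.58). Without HET PBS 4 and HET PBS 7, 0 of the 8 had an unadjusted p under 0.05 and the median was 0.34. These 2 animals were set apart by their high levels of such genes, so a lower median follows from the choice and is no test. In the 8 animals numbered from 600 the median was 0.55, with 5 of 8 above 0 and 3 higher at an unadjusted p under 0.05 (3.09% over all genes). With the range of animal numbers as a covariate, the median was 0.52. There 5 of 8 were above 0, and 5 were higher at an unadjusted p under 0.05 (3.66% over all genes).

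HET PBS 4 and HET PBS 7 shared other high genes. Depp1, a FOXO target, was at 120 and 84.1 CPM in them, at 26.2 CPM in WT PBS 8 and at 3.05 to 9.53 CPM in the other 12 kidneys. Hmox1, the heme oxygenase, was at 672 and 826 CPM in them, at 262, 284 and 286 CPM in HET PBS 5, HET PBS 6 and WT PBS 7, and at 19.7 to 161 CPM in the rest. Angptl4, a fasting-induced inhibitor of lipoprotein lipase, was at 155 and 125 CPM, against 16.7 to 87.7 CPM elsewhere. These 2 kidneys lay at the end of the second principal component of the 2000 most variable genes (12.2% of the variance, led by Hmox1, Zbtb16 and Depp1). The 11 tested genes of PPAR-alpha and fasting were above 0 in 11 of 11 members with TMM and in 10 of 11 with library totals. Their median was 0.23, and 2 (Angptl4 and Plin2) were higher at an unadjusted p under 0.05 (3.45% over all tested genes).

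Circadian clock genes separated 5 kidneys with neighbouring animal numbers, HET PBS 4 to 7 and WT PBS 7, from the other 10. Arntl, the activator BMAL1, was at 10.4 to 20.1 CPM in these 5 kidneys and at 0.980 to 3.79 CPM in the other 10. Dbp, an output gene of the clock, and Nr1d1 were low in the same 5 animals: Dbp was at 15.8 to 25.5 CPM against 48.5 to 89.7 CPM, and Nr1d1, the repressor REV-ERB-alpha, at 10.6 to 26.6 CPM against 28 to 80.7 CPM. Cry1 was at 14.6 to 17 CPM against 4.03 to 11.4 CPM. These ranges did not overlap, and 4 of the 5 kidneys were HET and 1 was WT. Between genotypes, 2 of 16 clock genes were higher at an unadjusted p under 0.05, namely Arntl (log2 fold change 1.5, SE 0.50) and Npas2 (1.03, SE 0.34), and Nr1d1 was lower (-0.67, SE 0.31). Over all tested genes the shares were 3.45% higher and 3.39% lower. In the 8 animals numbered from 600, 3 were higher and 8 lower (3.09% and 3.51% over all genes). The 4 HET kidneys there all belong to those 5, so the genotype and this set of animals cannot be told apart.

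Promoters of 3 clock genes are printed because, of the clock gene promoters searched, only these held the letters of a known clock element. Each is the stretch of 250 bases before the annotated start, on the gene's own strand, from RefSeq (GRCm38.p6), with the matched letters in capitals. The E-box CACGTG, which BMAL1 and CLOCK bind, occurs in 6.02% of 32851 promoters of that length, and the D-box TTATGTAA, which Dbp and its relatives bind, in 0.819% (both strands were searched). Ciart, on chromosome 3 from 95882229 to 95882478, holds 3 E-boxes, Cry1, on chromosome 10 from 85185055 to 85185304, holds 1, and Per3, on chromosome 4 from 151044666 to 151044915, holds 2 D-boxes. Per3 held no E-box. The promoters of Arntl, Npas2, Dbp and Nr1d1 were searched in the same way and held neither element. A further element, GTAGGTCA, which REV-ERB and ROR proteins bind, occurs in 0.5175% of promoters and in none of those searched here.
Ciart: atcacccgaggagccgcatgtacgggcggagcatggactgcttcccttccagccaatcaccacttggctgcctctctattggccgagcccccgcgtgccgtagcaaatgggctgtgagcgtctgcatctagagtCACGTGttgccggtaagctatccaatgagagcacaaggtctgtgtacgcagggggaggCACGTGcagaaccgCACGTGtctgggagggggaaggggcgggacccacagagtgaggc
Cry1: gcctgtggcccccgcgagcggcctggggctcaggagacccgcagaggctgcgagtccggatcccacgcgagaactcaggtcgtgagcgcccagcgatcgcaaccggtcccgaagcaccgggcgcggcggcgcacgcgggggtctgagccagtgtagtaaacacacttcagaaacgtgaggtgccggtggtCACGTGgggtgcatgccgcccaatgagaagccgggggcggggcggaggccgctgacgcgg
Per3: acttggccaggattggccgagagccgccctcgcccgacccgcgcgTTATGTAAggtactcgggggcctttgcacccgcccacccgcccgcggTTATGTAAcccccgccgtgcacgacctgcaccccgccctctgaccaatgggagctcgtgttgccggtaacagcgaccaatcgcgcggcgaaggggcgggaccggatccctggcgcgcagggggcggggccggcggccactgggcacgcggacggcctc
Ciart was at 0.625 to 3.66 CPM and Per3 at 30.6 to 43.8 CPM in HET PBS 4 to 7 and WT PBS 7, against 3.08 to 13.7 and 35.4 to 59.7 CPM in the others, and these ranges overlapped, unlike those of Cry1. A match of letters is a description of these windows only.

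Immediate early genes varied widely between animals of both genotypes. Fos, a transcription factor subunit induced within minutes of a stimulus, ranged from 1.04 to 253 CPM in HET and from 1.21 to 182 CPM in WT kidneys. Fosb was at 45.5 to 159 CPM in the 6 kidneys with the lowest animal numbers, HET PBS 1 to 3 and WT PBS 4 to 6, and at 0.104 to 12.6 CPM in the other 9. Nr4a1 (108 to 283 against 2.03 to 21.1 CPM) and Atf3 (16.8 to 93.5 against 0.454 to 9.68 CPM) split the same animals without overlap. These genes led the first principal component (22.7% of the variance). Of 16 immediate early genes, 0 had an unadjusted p under 0.05 between genotypes and the median log2 fold change was 0.01. In the 8 animals numbered from 600, 13 of the 16 were lower in HET kidneys at an unadjusted p under 0.05 (6.6% over all genes in either direction there, 3.51% lower), with a median of -2.02; the 2 kidneys of that subset with high levels, WT PBS 5 and WT PBS 6, are both WT.

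Heat shock genes varied between animals of both genotypes. Their summed levels were 3382 to 6711 CPM in HET and 3532 to 5832 CPM in WT kidneys. All 10 genes had a log2 fold change above 0, with a median of 0.20. Of these 1, the small heat shock protein Hspb1 (0.78, SE 0.30), had an unadjusted p under 0.05. Hspa1a was highest in HET PBS 1 and HET PBS 2 (175 and 173 CPM) and was at 14.7 to 117 CPM in the others. In the 8 animals numbered from 600, 3 of the 10 were above 0 and the median was -0.04. Without HET PBS 1, HET PBS 6 and WT PBS 6, 6 were above 0, 0 had an unadjusted p under 0.05 and the median was 0.035. Without HET PBS 4 and HET PBS 7, 5 of the 10 were higher at an unadjusted p under 0.05, against 1.87% of all genes tested in that subset, and the median was 0.41. With the range of animal numbers as a covariate, 2 of the 10 heat shock genes were above 0 with a median of -0.035, and 12 of the 16 immediate early genes were lower at an unadjusted p under 0.05 (3.73% over all genes) with a median of -1.55. In that fit 0 genes passed the threshold in edgeR and 1316 (7.39%) had an unadjusted p under 0.05. The range below 410 holds 1 WT kidney and the range above 2000 holds no HET kidney.

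**Figure D4:**
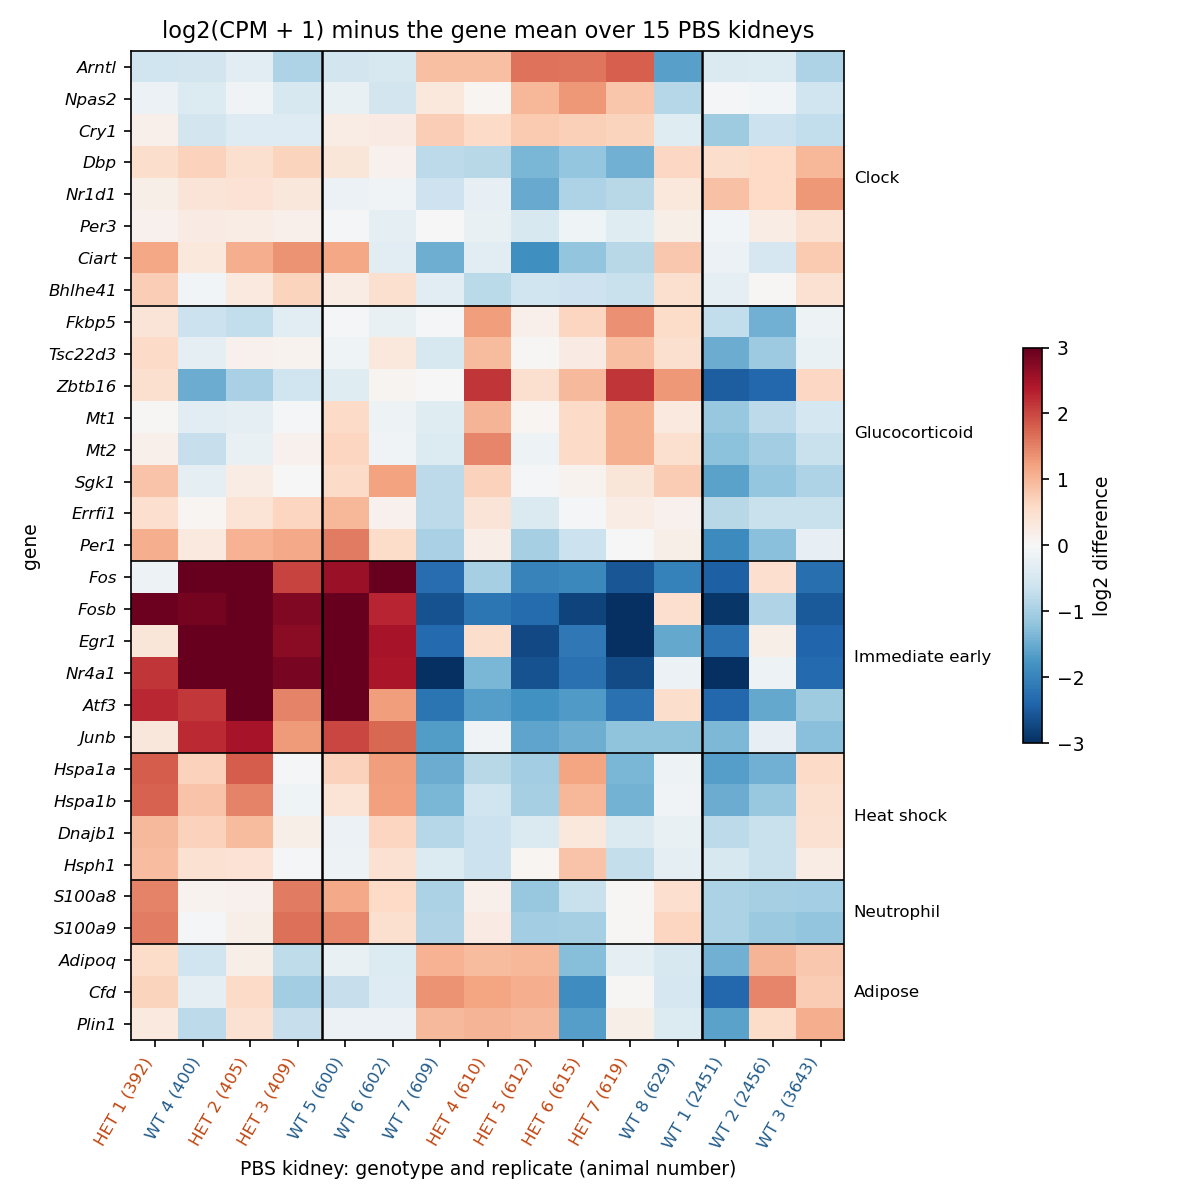
log2(CPM + 1) minus the gene's mean over the 15 PBS kidneys, which are ordered by animal number (WT labels in blue, HET labels in orange, vertical lines between the 3 number ranges). Immediate early genes are high in HET PBS 1 to 3 and WT PBS 4 to 6, Arntl is high and Dbp low in HET PBS 4 to 7 and WT PBS 7, and Zbtb16 is highest in HET PBS 4 and HET PBS 7 (145 and 147 CPM).

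Genes of oxidative phosphorylation and of cholesterol synthesis had medians near 0. The 16 nuclear genes of oxidative phosphorylation and the 13 mitochondrially encoded genes had medians of 0.02 and 0.01, with 0 genes at an unadjusted p under 0.05 in either list. Of 13 cholesterol synthesis genes, Idi1 (-0.21) and Mvd (-0.24), both of the mevalonate route, were lower, and the median was -0.02. Of 13 NRF2 targets, Hmox1 (1.71) and Gclm, a subunit of the enzyme that makes glutathione (0.13), were higher, with a median of 0.07. Without HET PBS 4 and HET PBS 7, 0 were higher at an unadjusted p under 0.05 and the median was 0.08. ER stress genes (12) had a median of 0.14 with Chac1 higher (1.09), and 0 were higher without HET PBS 1, HET PBS 6 and WT PBS 6. Without HET PBS 4 and HET PBS 7, 3 of 12 were higher (1.87% over all genes), with a median of 0.25. Cytokine and NF-kB genes (9) had a median of -0.13 with none at an unadjusted p under 0.05. In the 8 animals numbered from 600, 6 of 9 were lower (3.51% over all genes). The highest summed levels there were those of WT PBS 5 and WT PBS 6 (286 and 136 CPM), against 61.6 to 95.9 CPM in the HET kidneys. B and plasma cell genes (8) had a median of -0.20 with Igha lower (-0.65).

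Adipose genes varied widely in both groups. Adipoq, the fat cell hormone adiponectin, was at 0.173 to 4.67 CPM in HET and 0.0605 to 4.89 CPM in WT kidneys, and WT PBS 1 and HET PBS 6 were the lowest for Adipoq, Cfd and Ucp1 alike. The 7 tested adipose genes had a median of 0.09 between genotypes, with summed levels of 33.8 to 113 CPM in HET and 25.0 to 103 CPM in WT kidneys. The third principal component (8.07%) had Cfd, Adipoq and Plin1 among its leading genes. The 8 urothelial genes had a median of 0.02 with none at an unadjusted p under 0.05. Of 7 pancreas and liver genes 4 were tested, with Cela1 lower (-0.18). Of 8 adrenal genes Star was tested (0.09), and of 7 skeletal muscle genes Mylpf (0.18). In these 3 lists, 4 genes (Cyp11b2, Myh4, Prss2 and Cpa1) had 0 counts throughout. Of 7 genes that differ between C57BL/6 substrains, 0 passed and the median was 0.11. The 4 tested Y-linked genes had log2 fold changes from -0.09 to 0.10. Ide, the insulin-degrading enzyme, was at 150 CPM in HET PBS 1 and at 92.5 to 106 CPM in the other 14 kidneys.

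The same genotype contrast was also fitted under cisplatin. In the fit of all 31 libraries, 1 of 19268 genes (0.00519%) passed with edgeR between HET and WT kidneys given cisplatin, which was Htr6 (log2 fold change 7.02, SE 0.84, adjusted p 3.59e-05), and 1066 (5.53%) had an unadjusted p under 0.05. Nbl1 was lower there by a similar size (log2 fold change -1.49, SE 0.42, adjusted p 0.874) as under PBS in the same fit (-1.23). In 2 of the 8 HET libraries under cisplatin Nbl1 had 37 and 31 counts against 146 to 448 in the other 6, and without these and the 3 PBS libraries that go against their label no gene passed the test of the difference described next. Of the 16 genes ranked above as closest to the threshold under PBS, 7 had the same sign under cisplatin and 9 the opposite sign, in animals that the PBS comparison did not use. Lox was at 0.65 under PBS and -0.70 (SE 0.26) under cisplatin, Lcn2 at 0.88 and -0.55 (SE 0.25), Chrm3 at -0.68 and 0.11 (SE 0.14), and Wfs1 at -0.23 and -0.04 (SE 0.07).

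A test of the difference between the genotype contrasts found 0 of 19268 genes (0%) past the threshold in edgeR, with 1079 (5.60%) at an unadjusted p under 0.05. DESeq2 called 1, the predicted gene Gm37167. For Nbl1 the difference between the contrasts was -0.27 (SE 0.61), with an edgeR adjusted p of 0.974. For Htr6 it was 4.40 (SE 1.27), with an edgeR adjusted p of 0.725, and WT PBS 6 was the one WT kidney under PBS with Htr6 counts above 1.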

How the data were processed

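Kidney mRNA of 15 PBS-treated male mice was compared, 1 library per animal. Per the labels' protocols, RNA with an integrity number over 8 was prepared with the NucleoMag kit and the KAPA mRNA HyperPrep kit. The submitters' processing notes name featureCounts, STAR and fastp, and mm10 and GRCm38 as builds; no version or strand setting is given in the sources used here. The authors deposited, for 55487 genes, expected counts, TPM and FPKM of each library. Of the deposited expected counts, 12.52% were not whole and were rounded. TPM values as deposited by the authors were used for levels between genes and in 1 alternative. The deposited FPKM values were not used.

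Counts were tested with edgeR 4.0.16 (TMM, filterByExpr, quasi-likelihood) in R 4.3.3, HET PBS against WT PBS in the 15 libraries, no covariate, with Benjamini-Hochberg adjustment over all 17817 genes and a threshold of 0.05. CPM are TMM-scaled, with a prior count of 2 on the log2 scale. Nbl1 and Htr6 were also tested by two-sided exact permutation of animals. limma 3.58.1, DESeq2 1.42.0 and sva 3.50.0 gave the alternatives. The code was tested on simulated data. Coordinates are from GENCODE M21, which held 17791 of the tested genes.

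Named genes followed a rule: Nbl1, Htr6 and neighbours; the 8 smallest p in each direction with a mean of at least 1 CPM and a regular symbol; in each of 44 gene lists the 3 smallest p and the most abundant member; and the 6 most variable genes of each group. Other list members are named to describe the lists. Some items are not reported here. The comparison, gene lists and rule were chosen with earlier results of these data known. Nothing in the labels says that animals were littermates, and the spread between animals is all that the p-values measure. Alternatives were other tests, scalings, filters, covariates and subsets of animals, and leaving out each library. Covariate scores of clock, immediate early and glucocorticoid genes together, and leaving out HET PBS 4 and HET PBS 7, were chosen after seeing the data.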

Additional observations from a re-analysis of the deposited data

Results flagged for a closer look

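In 8 of 132 groups of values that were examined (66 genes in each genotype group), 1 kidney stood far from the rest of its group on the log2 scale. Chance gives about 1 such group in 20. Nbl1 was at 3.18 CPM in WT PBS 6 against 5.04 to 6.94 CPM in the other WT kidneys, and Htr6 was at 0.648 CPM in the same kidney against 0 to 0.0306 CPM. Depp1 was at 26.2 CPM in WT PBS 8 against 3.76 to 9.23 CPM, and Adipoq at 0.0605 CPM in WT PBS 1 against 0.889 to 4.89 CPM. Among the HET kidneys, Kcp was at 7.50 CPM in HET PBS 5 against 5.25 to 6.01 CPM, and Slc4a1 at 23.3 CPM in HET PBS 4 against 29.5 to 34.6 CPM. Ide was at 150 CPM in HET PBS 1 against 92.5 to 104 CPM in the other HET kidneys, and at 106 CPM in WT PBS 1 against 95.1 to 99.3 CPM in the other WT kidneys.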

How the results depend on the processing

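The count of 0 genes past the threshold became 3 with DESeq2, 1 with limma voom and quality weights, and 1 (Nbl1) without HET PBS 1, HET PBS 6 and WT PBS 6, which were set apart by Nbl1 itself, and was 0 under every other alternative that was run; the count of 0 for the interaction became 1 with DESeq2. In the 8 animals numbered from 600 the log2 difference of Nbl1 was -1.43 (exact permutation p 0.0571) and that of Htr6 2.25 (p 0.0857), where 4 against 4 animals cannot go below 0.0143. Leaving out 1 library gave -1.99 to -1.23 for Nbl1 and 2.59 to 3.12 for Htr6. With the clock, immediate early and glucocorticoid scores as covariates, the log2 fold changes of Cdkn1a (-0.12), Fkbp5 (-0.055), Mt1 (-0.11), Bmp6 (-0.077), Bmp4 (-0.015), Hmox1 (-1.20), Odc1 (0.0071), Mcm6 (0.085), Nr1d1 (0.22), Idi1 (0.042) and Cldn19 (0.052) changed sign; these scores are computed from genes that include members of the same lists. Depp1 turned to -0.37 with 2 surrogate variables and -0.50 without HET PBS 4 and HET PBS 7, Hmox1 to -0.077 with 2 surrogate variables, and Igha to 0.051 in the 8 animals numbered from 600. The cause was not tested. No paired analysis was possible because the labels give no replicate numbers that the groups share; the numbers 1 to 8 used here only name animals. Intervals within a 2-fold change were less frequent over all tested genes (93.7%) than over those with a mean of at least 1 CPM (97.9%). The part of depth (29.2 M to 37.3 M counts) in this was not tested.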
